A study of Mus musculus with 12 samples.

Results

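The 10 genes described here act in blood clotting and clot removal, are made outside the liver and were followed through blood and spleen of the mouse. They are F5, F13a1, F10, Pros1, Serpine2, Tfpi, Thbd, Procr, Plau and Plaur. They were taken by symbol, as a list, from among the 46603 Ensembl identifiers of each count table, and every symbol matched 1 identifier. The study compared C57/Bl6 mice of wild type (WT) with mice lacking nuclear myosin 1 (NM1 KO), all 8 months old, in blood and in spleen. There were 4 groups of 3 libraries, namely WT blood, NM1 KO blood, WT spleen and NM1 KO spleen. Blood was drawn from the submandibular vein, and the spleen sample was a small piece of the tip of the organ. The labels name no treatment, and how the KO allele was made is not given in the sources used here. NM1 is one of the proteins made from Myo1c, a class I myosin gene whose count sums all of its forms. Whether each library came from a separate mouse is not stated, so the p-values measure only the spread between these libraries, part of which may be technical.

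Clotting is a chain of proteases that ends in thrombin, which cuts fibrinogen to fibrin. Factor X (F10) is the protease that makes thrombin, factor V (F5) is its helper protein on the membrane, and the A chain of factor XIII (F13a1) crosslinks the finished fibrin. Brakes act at each step. Tissue factor pathway inhibitor (Tfpi) blocks the start of the chain, thrombomodulin (Thbd) and the endothelial protein C receptor (Procr) turn thrombin into an activator of protein C, and protein S (Pros1) is the helper of activated protein C. Protease nexin-1 (Serpine2) inhibits thrombin and plasminogen activators. Urokinase (Plau) makes plasmin, which dissolves fibrin, and Plaur is the receptor that holds urokinase on the cell surface. Most clotting factors are secreted by hepatocytes. F5, F13a1, Pros1 and Serpine2 are also known from megakaryocytes and platelets, F13a1 and F10 from monocytes and macrophages, and Tfpi, Thbd and Procr from endothelium.

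Start regions are shown for 4 members whose levels the results turn on: the clotting factors F5 and F13a1, the brake Pros1 that went with them, and the brake Tfpi that went the other way. For each gene the window is the one at the 5′ end of the annotated gene, from 250 bases before to 50 bases after the start, on the strand of the gene, from RefSeq with build GRCm38.p6. Capitals mark GATAA, the core of sites for GATA factors, and AGGAAG, a core of sites for ETS factors, searched on both strands (TTATC and CTTCCT on the other) with no overlap between the motifs.
F5, chr1:164151585-164151884, plus strand: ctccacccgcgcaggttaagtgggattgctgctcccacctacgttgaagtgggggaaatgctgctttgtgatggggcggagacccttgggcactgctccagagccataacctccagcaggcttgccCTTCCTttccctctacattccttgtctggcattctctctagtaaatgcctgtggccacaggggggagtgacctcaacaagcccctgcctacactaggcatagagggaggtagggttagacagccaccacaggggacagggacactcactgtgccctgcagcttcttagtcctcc
F13a1, chr13:37050195-37050494, minus strand: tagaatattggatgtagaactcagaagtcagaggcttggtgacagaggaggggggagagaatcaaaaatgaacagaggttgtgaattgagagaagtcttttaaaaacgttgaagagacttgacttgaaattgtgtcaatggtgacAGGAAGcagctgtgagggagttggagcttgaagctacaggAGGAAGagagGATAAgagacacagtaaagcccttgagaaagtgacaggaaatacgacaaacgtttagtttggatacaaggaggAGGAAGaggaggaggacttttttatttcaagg
Pros1, chr16:62854057-62854356, plus strand: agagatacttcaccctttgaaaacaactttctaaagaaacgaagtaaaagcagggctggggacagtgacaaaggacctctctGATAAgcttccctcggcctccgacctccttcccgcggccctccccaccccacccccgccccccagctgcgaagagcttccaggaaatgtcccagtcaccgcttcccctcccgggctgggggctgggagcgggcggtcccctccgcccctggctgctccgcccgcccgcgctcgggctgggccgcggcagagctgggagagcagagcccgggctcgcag
Tfpi, chr2:84476710-84477009, minus strand: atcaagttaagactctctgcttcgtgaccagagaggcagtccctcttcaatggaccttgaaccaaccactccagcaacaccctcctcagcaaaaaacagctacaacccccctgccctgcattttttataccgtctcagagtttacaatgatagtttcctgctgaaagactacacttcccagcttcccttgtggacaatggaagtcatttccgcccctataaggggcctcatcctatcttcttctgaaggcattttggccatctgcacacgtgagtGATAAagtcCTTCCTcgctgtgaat
The F13a1 window held 1 GATAA and 3 AGGAAG matches, the F5 window held only 1 AGGAAG match, and the Pros1 window held only 1 GATAA match. The Tfpi window held 1 match of each motif. The table of start regions held windows for 8 of the 10 members, and Thbd and Plau had none. GATAA was found in 5 of the members' 10 windows and in 25.4% of all 32851 windows of that length, and AGGAAG was found in 7 of 10 and in 35.4%. Tfpi and F13a1 gave more than 1 window each, so their matches count repeatedly. By gene, GATAA was found in 4 of 8 members and AGGAAG in 5 of 8, while the background shares are by window. The windows of F10 and Procr held neither motif. A match is a description of the sequence, not a bound site.

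Before any comparison the libraries have to be described by globin, the oxygen carrier of red cells. In 6 libraries globin took 48.9% to 56.1% of counts, and in the other 6 it took 0.846% to 5.90%. A library with over 25% is called globin-rich here and any other globin-poor. The globin-rich libraries were numbers WT 01, KO 02 and KO 03 of blood and numbers WT 02, WT 04 and KO 03 of spleen, so both kinds held both genotypes and both tissue labels. The labels of tissue went against this division: red pulp macrophage markers, which belong to spleen, summed to 1353 to 2026 CPM in the globin-poor libraries and to 50.1 to 178 CPM in the globin-rich ones, whichever tissue the label named. Whether labels were exchanged or samples mixed was not tested. Every library keeps its label here, so each comparison of blood with spleen, and of KO with WT inside either, is one of libraries as labelled. Total counts were 9.32 to 12.1 M in globin-rich and 23.1 to 28.2 M in globin-poor libraries. Levels are counts per M counts that are not globin (CPM), and 3 counts, the limit that a count of 0 allows, are 0.515 to 0.733 CPM in globin-rich libraries and 0.110 to 0.138 CPM in the globin-poor kind. Olfactory receptor genes summed to 100 to 144 CPM in 4 globin-rich libraries (WT 01 and KO 02 of blood, WT 02 and WT 04 of spleen) and to 6.52 to 11.6 CPM in the other 8. Libraries divided by their own counts are not groups of the study, so the 2 kinds are described side by side without a test. Myo1c differed between KO and WT by a log2 fold change of 0.33 ± 0.43 (SE) in blood and -0.06 ± 0.29 in spleen, with edgeR adjusted p-values of 1 and 0.999, which checks neither the KO nor the labels because other forms are counted too.

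The members lay on both sides of the division by globin. F5, F13a1, F10 and Pros1 were higher in all 6 globin-rich than in all 6 globin-poor libraries, and Tfpi, Thbd, Procr and Plau were lower in all 6. Serpine2 and Plaur overlapped. Of all 16858 genes that passed the filter over the 12 libraries, 3.21% lay above without overlap, 45% below and 48.2% in either direction. On this scale the 4 members below are thus close to the background share, while 4 of 10 above stand beside 3.21%. Both shares depend on the scale, as given further on. The 4 libraries with high olfactory receptor sums are all globin-rich. Leaving them out cannot make any of the 8 members without overlap overlap, so it is no check of them. The plot of member levels by library shows the division by globin for each gene.

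**Figure D1:**
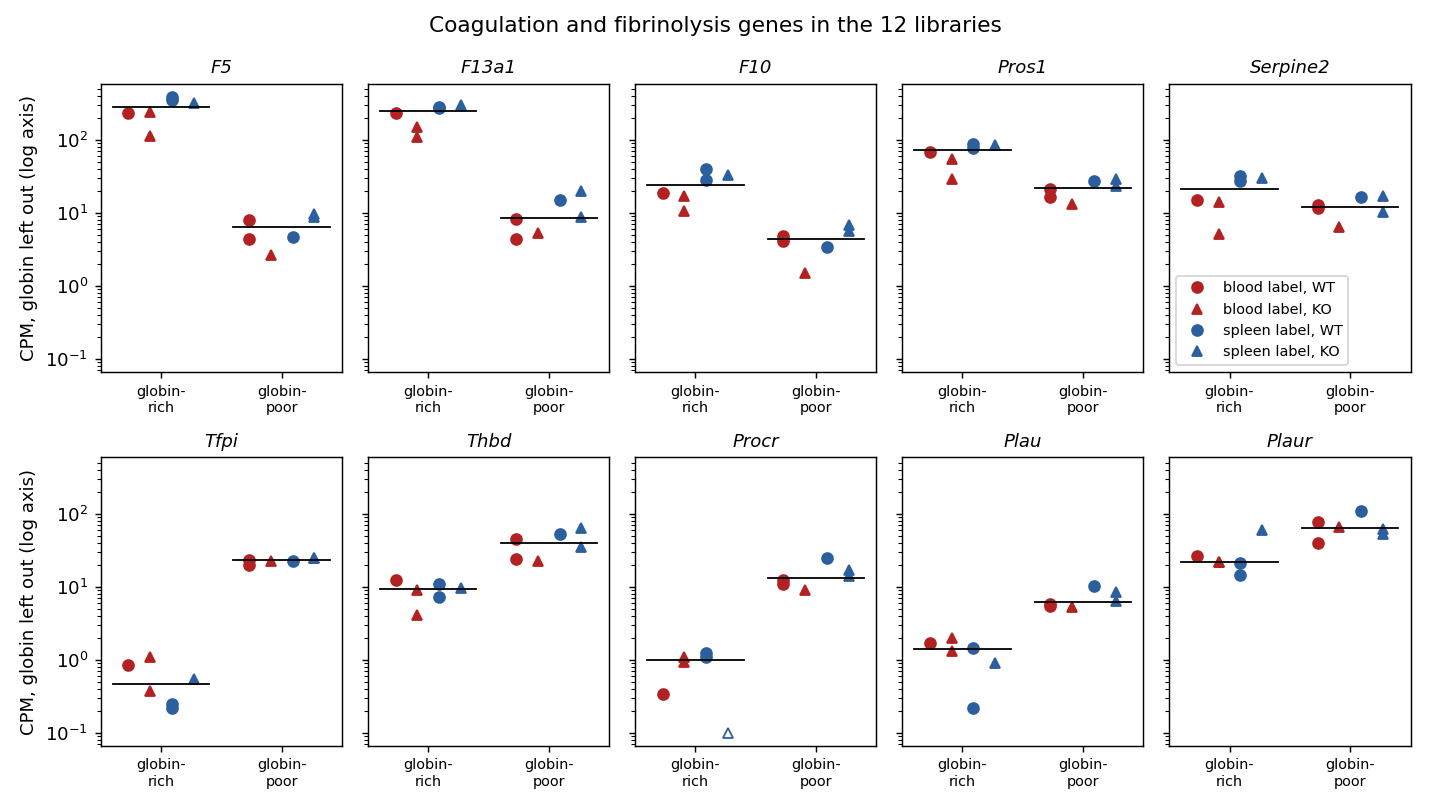
Levels of the 10 genes as CPM with globin left out (vertical log axis, the same for all panels) in 6 globin-rich and 6 globin-poor libraries. Each point is 1 library (red, blood label; blue, spleen label; circle, WT; triangle, KO), lines are medians, and the open triangle near the foot of the Procr panel is a library at 0. F5 runs from 112 to 391 CPM in globin-rich libraries and from 2.64 to 9.81 CPM in the globin-poor kind, and Tfpi runs the other way.

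Among the procoagulant genes, F5 had the widest gap. F5 (ENSMUSG00000026579, GRCm38 chromosome 1, 164151838 to 164220277, plus strand) lay at a lowest of 112, a median of 279 and a highest of 391 CPM in the globin-rich libraries. In the globin-poor libraries the same 3 values were 2.64, 6.35 and 9.81 CPM. Pooled over 6 libraries each, the level was 40.9 times as high in the globin-rich ones, with a 95% counting interval of 38.2 to 43.8 that covers counting error only. No globin-poor library came near the lowest globin-rich one, blood KO 03. In bulk tissue a smaller number of cells of a type and less RNA in each of them cannot be told apart.

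F13a1 (chromosome 13, 36867178 to 37050244, minus strand), the fibrin crosslinking enzyme, had almost the same range in the globin-rich libraries, with a lowest of 110, a median of 252 and a highest of 301 CPM. In the globin-poor libraries it lay at 4.36, 8.56 and 19.8 CPM. The pooled ratio was 21.1 (20.0 to 22.3). F10 (chromosome 8, 13037308 to 13056676, plus strand), the protease of the prothrombinase, was a low gene of the same pattern. It lay at 10.7, 23.8 and 40.1 CPM in globin-rich libraries and at 1.50, 4.46 and 6.74 CPM in the globin-poor kind, with a pooled ratio of 5.45 (4.90 to 6.07). For all 3 genes blood KO 03 was the lowest globin-rich library.

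Among the brakes, Pros1 and Serpine2 went with the procoagulant genes rather than with Tfpi, Thbd and Procr. Pros1 (chromosome 16, 62854307 to 62929346, plus strand) lay at a lowest of 29.5, a median of 72.7 and a highest of 88.0 CPM in the globin-rich libraries and at 13.2, 22.3 and 29.0 CPM in the globin-poor ones. The gap was narrow: the lowest globin-rich library, blood KO 03, stood just above the highest globin-poor library, spleen KO 04. Serpine2 (chromosome 1, 79794197 to 79861180, minus strand) lay at 5.07, 21.4 and 32.0 CPM against 6.47, 12.2 and 17.2 CPM, and the kinds overlapped. The pooled ratios were 2.99 (2.83 to 3.16) for Pros1 and 1.58 (1.44 to 1.73) for Serpine2.

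Tfpi had the largest gap in the other direction. Tfpi (chromosome 2, 84432855 to 84476775, minus strand) lay at 20.0, 22.9 and 25.0 CPM in the globin-poor libraries, the smallest ratio of highest to lowest library among the 10 members. In the globin-rich libraries it was counted 1 to 6 times, at 0.218, 0.462 and 1.07 CPM. Over 18 counts against 3339, the pooled level was 39.5 times as high in the globin-poor libraries (25.0 to 66.7).

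Procr (chromosome 2, 155751117 to 155755471, plus strand), the receptor for protein C, lay at 8.90, 13.2 and 25.0 CPM in the globin-poor libraries. It lay at 0, 1.01 and 1.22 CPM in the globin-rich libraries, and the 0 counts of spleen KO 03 allow up to 0.549 CPM. The pooled ratio of globin-poor over globin-rich was 20.0 (13.3 to 31.6). Thbd (chromosome 2, 148404466 to 148408188, minus strand), its partner in protein C activation, was counted at least 22 times in every library. It lay at 4.13, 9.41 and 12.5 CPM in globin-rich libraries and at 22.3, 40.1 and 64.3 CPM in the globin-poor kind, a pooled ratio of 4.56 (4.04 to 5.16). The 2 genes of 1 reaction thus differed in size: the Procr gap was the wider.

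Of the plasminogen activator genes, Plau (chromosome 14, 20836660 to 20843385, plus strand) lay at 0.218, 1.39 and 1.97 CPM in globin-rich libraries and at 5.20, 6.11 and 10.3 CPM in the globin-poor kind. Its pooled ratio of globin-poor over globin-rich was 5.40 (3.94 to 7.61). Plaur (chromosome 7, 24462484 to 24475968, plus strand), the urokinase receptor, lay at 14.4, 21.8 and 59.8 CPM in globin-rich libraries and at 39.8, 64.5 and 110 CPM in the globin-poor kind. The kinds overlapped through 1 library, spleen KO 03, whose 59.8 CPM exceeded 2 of the globin-poor libraries, while the other globin-rich libraries lay at 26.1 CPM or less. Neutrophil markers summed to 3969 CPM in that library and to 588 to 1208 CPM in the other globin-rich ones, and their part in the Plaur value was not tested.

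The scale bears on these ratios because most genes were lower in the globin-rich libraries. The median gene had a log2 ratio of globin-rich over globin-poor medians of -1.14 with globin left out, -2.16 per M of all counts and -0.13 after scaling by trimmed means of M-values (TMM). Relative to that median gene, F5 stood at 6.60, F13a1 at 6.02, F10 at 3.56, Pros1 at 2.84 and Serpine2 at 1.95 on the log2 scale. Tfpi stood at -4.49, Procr at -2.57, Plau at -0.996, Thbd at -0.95 and Plaur at -0.43. Set against the median gene, Thbd, Plau and Plaur therefore stood much nearer to other genes than Tfpi and Procr did. Without this centring, Serpine2 turned from 0.81 to -0.21 per M of all counts, F10 and Pros1 overlapped on that scale, Plaur no longer did, and Thbd overlapped after TMM scaling. The background without overlap moved as well. Per M of all counts, 255 of 16858 genes lay above and 11418 below, with 2 and 5 members. After TMM scaling, 1787 lay above and 2990 below, with 4 and 3 members.

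Cell type markers were read beside these levels. The 10 platelet markers were all higher without overlap in the globin-rich libraries, with a sum of 2791 to 8719 CPM against 254 to 477 CPM. The 10 endothelial markers summed to 5.26 to 24.4 CPM in globin-rich libraries and 235 to 387 CPM in the globin-poor kind. Of these, 9 lay below without overlap, and 7, Cdh5 and Stab2 among them, had 0 counts in at least 1 globin-rich library. The sum for fibroblast and smooth muscle was 5.26 to 17.7 CPM, beside 739 to 1709 CPM, with all 10 below, and that for peritoneal macrophages and mesothelium was 4.51 to 20.9 CPM, beside 38.0 to 122 CPM. The monocyte sums overlapped, at 344 to 984 CPM and 363 to 668 CPM, as did 9 of the 10 markers. The exception was Ccr2, a chemokine receptor of monocytes, at 50.1 to 132 CPM in globin-rich libraries and 8.49 to 21.4 CPM in the globin-poor kind. The part of platelets, neutrophils, monocytes, endothelium or stroma in the members' levels was not tested. The 8 hepatocyte markers were near 0 in both kinds, with sums of 0 to 3.77 CPM and 2.16 to 5.69 CPM, and none of them was counted in every library.

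Divided by the platelet sum, the genes of the first pattern did not form 1 group. F5 was 4.01% to 5.58% of the platelet sum in the globin-rich libraries and 1.03% to 2.32% in the globin-poor ones. F13a1 was 3.13% to 5.42% and 1.01% to 4.19%, which overlapped. The other genes went the opposite way. F10 was 0.352% to 0.460% in globin-rich and 0.591% to 1.41% in globin-poor libraries, Pros1 0.941% to 1.61% and 3.84% to 7.66%, and Serpine2 0.182% to 0.392% and 2.41% to 4.63%. In relation to platelet markers, F10, Pros1 and Serpine2 were thus higher in the globin-poor libraries.

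**Figure D2:**
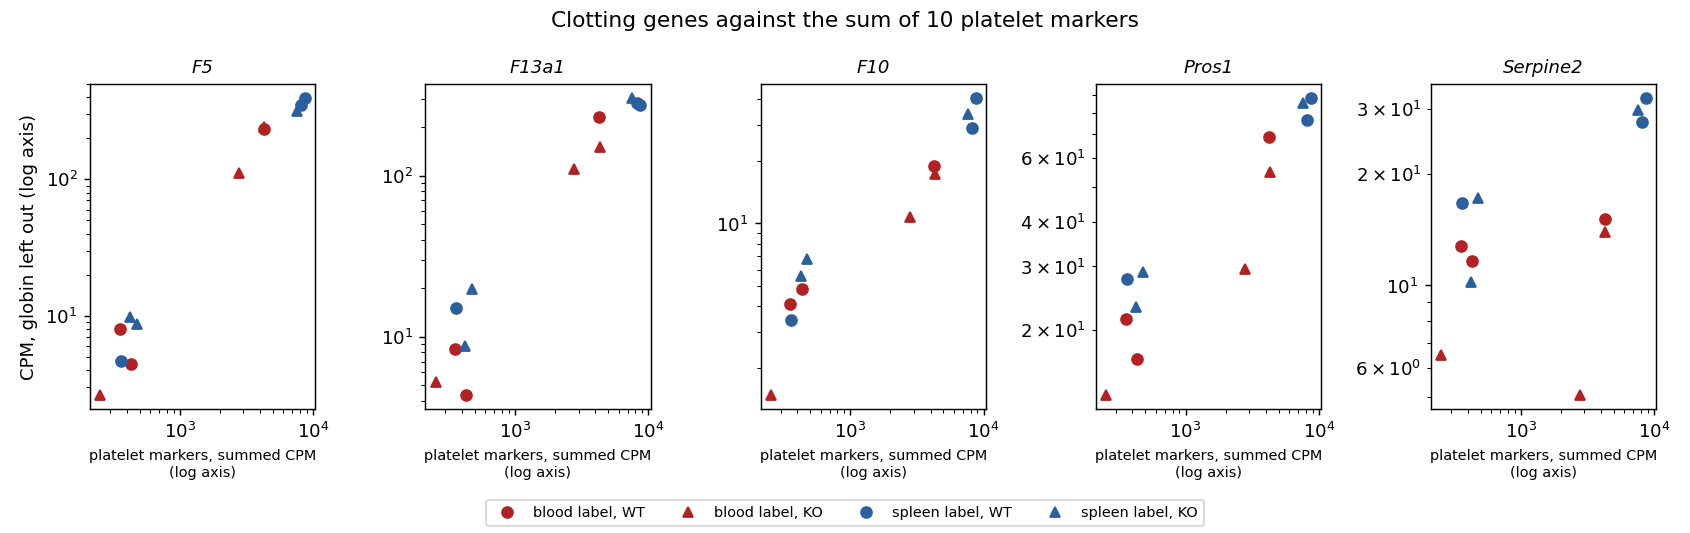
CPM with globin left out of F5, F13a1, F10, Pros1 and Serpine2 (vertical log axes, each with its own range) against the summed CPM of 10 platelet markers (horizontal log axis), 1 point for each of 12 libraries. The globin-rich libraries lie at the right, from 2791 to 8719 CPM of platelet markers, and the globin-poor ones at the left, from 254 to 477 CPM. F5 and F13a1 are at their highest on the right, while Serpine2 spans similar levels on both sides.

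To compare genes with each other, levels were divided by the exon length of each gene (CPM per kb). In globin-rich libraries the order of medians was F5 at 37.5, F13a1 at 37.4, Pros1 at 17.8, F10 at 8.71, Plaur at 8.33, Serpine2 at 2.58, Thbd at 2.53, Plau at 0.587, Procr at 0.495 and Tfpi at 0.0846 CPM per kb. Neighbours in that order overlapped except Plaur with Serpine2 and Thbd with Plau. In globin-poor libraries the order began with Plaur at 24.7, Thbd at 10.8, Procr at 6.49, Pros1 at 5.46 and Tfpi at 4.20 CPM per kb. It went on with Plau at 2.58, F10 at 1.63, Serpine2 at 1.47, F13a1 at 1.27 and F5 at 0.855 CPM per kb, and every pair of neighbours overlapped. F5 and F13a1 led the first order and closed the second, and the urokinase receptor and thrombomodulin led the second.

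**Figure D3:**
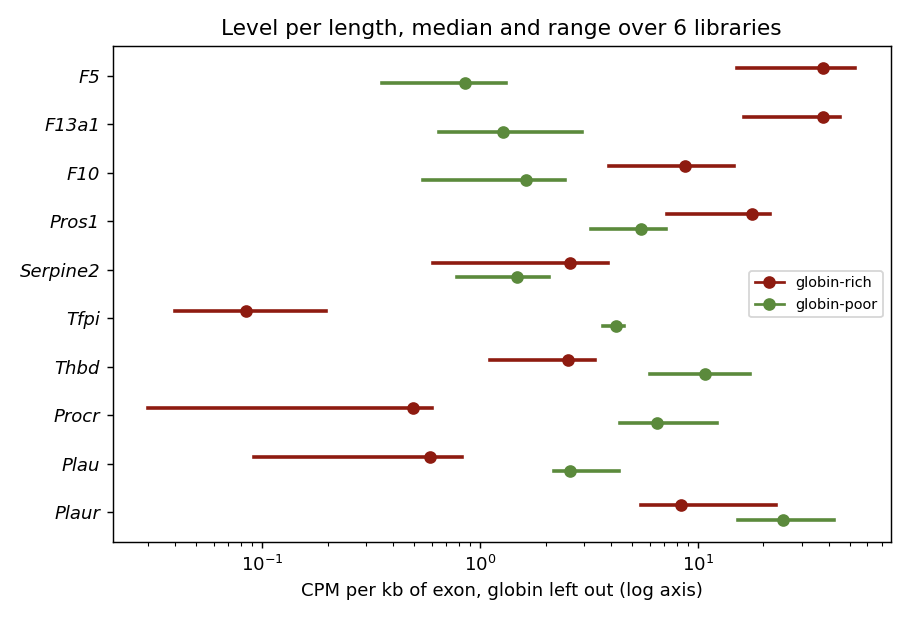
Median (point) and range (line) of CPM per kb of exon, globin left out (log axis), for each gene in 6 globin-rich and 6 globin-poor libraries. The lowest Procr library of the globin-rich kind is at 0 and is drawn at the left end of its line. F5 and F13a1 have the highest globin-rich medians, 37.5 and 37.4 CPM per kb, and Plaur has the highest globin-poor median, 24.7 CPM per kb.

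Within a kind the tissue label still went with the level of some members. In the globin-rich libraries F5 was 234, 241 and 112 CPM under the blood label (WT 01, KO 02, KO 03) and 351, 391 and 317 CPM under the spleen label (WT 02, WT 04, KO 03). F13a1 was 231, 151 and 110 CPM against 282, 273 and 301 CPM in the same order. F10 was 18.9, 17.3 and 10.7 CPM against 28.7, 40.1 and 33.6 CPM. Every library with the spleen label stood above every library with the blood label in all 3 genes. Pros1 was 68.6, 54.9 and 29.5 CPM against 76.8, 88.0 and 85.6 CPM, and Serpine2 was 15.1, 13.9 and 5.07 CPM against 27.6, 32.0 and 29.8 CPM. These are 5 of the 10 members above without overlap, and 5 of the 7 members among the 11728 genes tested. Of all genes tested 3.84% lay above, and no member lay below, beside 7.70%.

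By edgeR's quasi-likelihood test, which took 7 of the members (Tfpi, Procr and Plau were too low), 0 of 7 had an adjusted p under 0.05, and 0.00853% of all genes had. F10 was nearest, with a log2 fold change of 1.45 ± 0.26 (SE) for spleen over blood label and an edgeR adjusted p of 0.0697. No tested member had a fold change below 0. At an unadjusted p under 0.05 edgeR gave 5 of 7 members and 13.5% of all genes. DESeq2 called F5, F13a1, F10, Pros1 and Serpine2, 5 of 7, and 7.15% of all genes, with adjusted p-values of 5.5e-06 to 0.00143. Over all the alternatives the adjusted p of F10 ranged from 5.88e-06 to 0.453. The same 5 members were called by edgeR without the library spleen KO 03, beside 3.04% of all genes, and without a filter on low counts, beside 1.19%. The call thus depends on the tool, on the filter and on the library spleen KO 03. The F10 value was above 0 under every alternative (0.95 to 1.66). The median log2 fold change was 1.13 over the 7 members and 0.03 over all genes. All 10 platelet markers had fold changes above 0, with a median of 1.38, and their sum was 2791 to 4317 CPM under the blood and 7594 to 8719 CPM under the spleen label. Of the neutrophil markers 8 of 8 tested were above 0, with a median of 1.28, and the sums overlapped, at 588 to 1208 CPM for blood and 654 to 3969 CPM for spleen. Of the monocyte markers 9 of 10 were above 0, with a median of 0.24. The part of these cells in the members' difference was not tested. As shares of the platelet sum F5 was 4.01% to 5.58% under the blood and 4.17% to 4.49% under the spleen label, and F10 was 0.384% to 0.442% and 0.352% to 0.460%, both overlapping.

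In the globin-poor libraries F13a1, Pros1, Procr and Plau were higher in every library with the spleen label than in every one with the blood label. F13a1 was 4.36, 8.32 and 5.24 CPM under the blood label (WT 03, WT 04, KO 04) and 15.1, 8.79 and 19.8 CPM under the spleen label (WT 01, KO 01, KO 04). Procr was 10.8, 12.2 and 8.90 CPM against 25.0, 14.1 and 17.1 CPM in the same order. Plau was 5.47, 5.76 and 5.20 CPM against 10.3, 6.46 and 8.39 CPM. With Pros1, at 16.6, 21.5 and 13.2 CPM against 27.6, 23.1 and 29.0 CPM, these were 4 of the 10 members above without overlap. The background was 25.2% of 16422 genes above and 9.17% below, where there was no member. With so many genes above, these 4 are not read as a trait of the members.

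The globin-poor label comparison made no call among the members: edgeR called 0 of 10, beside 0.0731% of all genes, and 2 of 10 had an unadjusted p under 0.05, beside 24.2%. F13a1 had a log2 fold change of 1.05 ± 0.32 (SE) with an edgeR adjusted p of 0.129, and Tfpi, the only member below 0, had -0.11 ± 0.16 with an edgeR adjusted p of 0.657. DESeq2 called F13a1 alone (adjusted p = 0.0342, beside 9.88% of all genes), and so did edgeR without the library spleen KO 01 (adjusted p = 0.0196, beside 17.2% of all genes). The adjusted p of F13a1 ranged from 0.0196 to 0.441 over the alternatives. All 8 peritoneal macrophage and mesothelium markers had fold changes above 0 in this comparison, with sums of 38.0 to 46.6 CPM under the blood and 60.4 to 122 CPM under the spleen label. Fibroblast and smooth muscle markers were above 0 in 9 of 10 (median 0.43) and endothelial markers in 8 of 10 (median 0.30), beside a median of 0.04 over all genes. The part of these cells in the members' differences was not tested. Tfpi stayed within 20.0 to 25.0 CPM under either label.

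The question of the study, what loss of NM1 does to blood and spleen, was put to the members in 5 comparisons, and edgeR called none of them in any. In blood, the WT libraries 01, 03 and 04 held F5 at 234, 4.45 and 8.02 CPM, and the KO libraries 02, 03 and 04 held it at 241, 112 and 2.64 CPM. In spleen it stood at 4.69, 351 and 391 CPM in the WT libraries 01, 02 and 04, beside 9.81, 317 and 8.75 CPM in the KO libraries 01, 03 and 04. The spread inside each group was the difference between the kinds of library, and WT blood held 1 globin-rich library where KO blood held 2, and the reverse held in spleen.

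In blood 0 of 10 members were called, as were 0% of 14939 genes, and 0 of 10 had an unadjusted edgeR p under 0.05, beside 0.161% of all genes. No member was without overlap, beside 0.127% of genes above and 3.51% below in KO. DESeq2 and limma-voom called 0 of 10 too, but DESeq2 gave no p-value for Tfpi and F13a1, so it did not test them. The smallest p-values belonged to F10 among the members above 0, with a log2 fold change of 0.47 ± 1.19 (SE), and to Thbd among those below, with -0.87 ± 0.46, both at an edgeR adjusted p of 1. The median was -0.14 over the members and -0.05 over all genes. With the kind of library as a term the F10 value was -0.82 and the members' median -0.44, beside 0.01 over all genes.

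In spleen 0 of 10 members and 0% of 15362 genes were called, with 0 of 10 and 2.41% at an unadjusted p under 0.05. DESeq2 and limma-voom called 0 of 10, but DESeq2 gave no p-value for F5, so it did not test that gene. All 10 members overlapped, beside 1.37% of genes above and 1.11% below. Tfpi had a log2 fold change of 1.01 ± 1.42 (SE; edgeR adjusted p = 0.999) and Serpine2 of -1.26 ± 0.85 (edgeR adjusted p = 0.989). Tfpi was at 0.26 with the kind of library as a term and at 4.56 without spleen WT 01, and Serpine2 at -0.09 with library size only and at -2.15 without spleen KO 03. The members' median was -0.66, beside 0.02 over all genes, and -0.32 with the kind of library as a term. The difference between the KO effects in spleen and blood was tested as an interaction over 16858 genes, with 0 of 10 members and 0% of genes called and 0 of 10 and 1.01% at an unadjusted p under 0.05. Thbd had an interaction of 1.11 ± 0.75 and F10 of -1.84 ± 1.96 on the log2 scale, both with an edgeR adjusted p of 0.931. The F10 value turned to 0.98 with the kind of library as a term and to 0.90 with a replicate block, and was -3.73 without spleen KO 03.

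Within the globin-rich libraries, KO against WT again gave 0 calls among the 7 members tested and in 0% of 11728 genes by edgeR, while DESeq2 called 0.264% of all genes and no member. F5 was 241, 112 and 317 CPM in KO (blood 02, blood 03, spleen 03) and 234, 351 and 391 CPM in WT (blood 01, spleen 02, spleen 04). Pros1 was 54.9, 29.5 and 85.6 CPM in KO and 68.6, 76.8 and 88.0 CPM in WT. Pros1 had the smallest p, with a log2 fold change of -0.90 ± 0.32 (SE) and an edgeR adjusted p of 0.719. Plaur, the only member above 0, had 0.38 ± 0.35 with an edgeR adjusted p of 0.78, and its sign turned without spleen KO 03 (-0.12). At an unadjusted p under 0.05 edgeR gave 5 of 7 members, all below 0, beside 6.81% of all genes, and none was without overlap, beside 8.30% of genes above and 2.75% below. The KO arm held 2 libraries with the blood label and 1 with the spleen label, and the WT arm the reverse. Olfactory receptor sums differed between the arms too, at 100 to 144 CPM in WT and 7.89 to 129 CPM in KO. What this difference does to the members' values was not tested. With the tissue label as a term the members' median moved from -0.93 to -0.63, none was called, and Pros1 was at -0.62 ± 0.19 (edgeR adjusted p = 0.749). All 10 platelet markers were below 0 in the same comparison, with a median of -1.03 and sums of 4267 to 8719 CPM in WT and 2791 to 7594 CPM in KO, and their part in the members' values was not tested.

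Within the globin-poor libraries, edgeR called 0 of 10 members and 0% of 16422 genes, with 0 of 10 and 0.84% at an unadjusted p under 0.05, and DESeq2 called 0 of 10 members and 0.0304% of genes. Tfpi was 22.6, 25.0 and 24.5 CPM in KO (blood 04, spleen 01, spleen 04) and 20.0, 23.3 and 22.2 CPM in WT (blood 03, blood 04, spleen 01), a log2 fold change of 0.12 ± 0.17 (SE; edgeR adjusted p = 1). Serpine2 had -0.32 ± 0.30 (edgeR adjusted p = 1). All 10 members overlapped, beside 2.18% of genes above and 1.20% below, and their median was -0.03, beside -0.00 over all genes. The KO arm held more libraries with the spleen label than the WT arm. With the tissue label as a term the members' median was -0.24, with 1 of 10 above 0, beside -0.0014 over all genes. None was called, and Procr was at -0.46 ± 0.18 (edgeR adjusted p = 0.739). The plot of fold changes sets the 4 comparisons within kinds side by side.

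**Figure D4:**
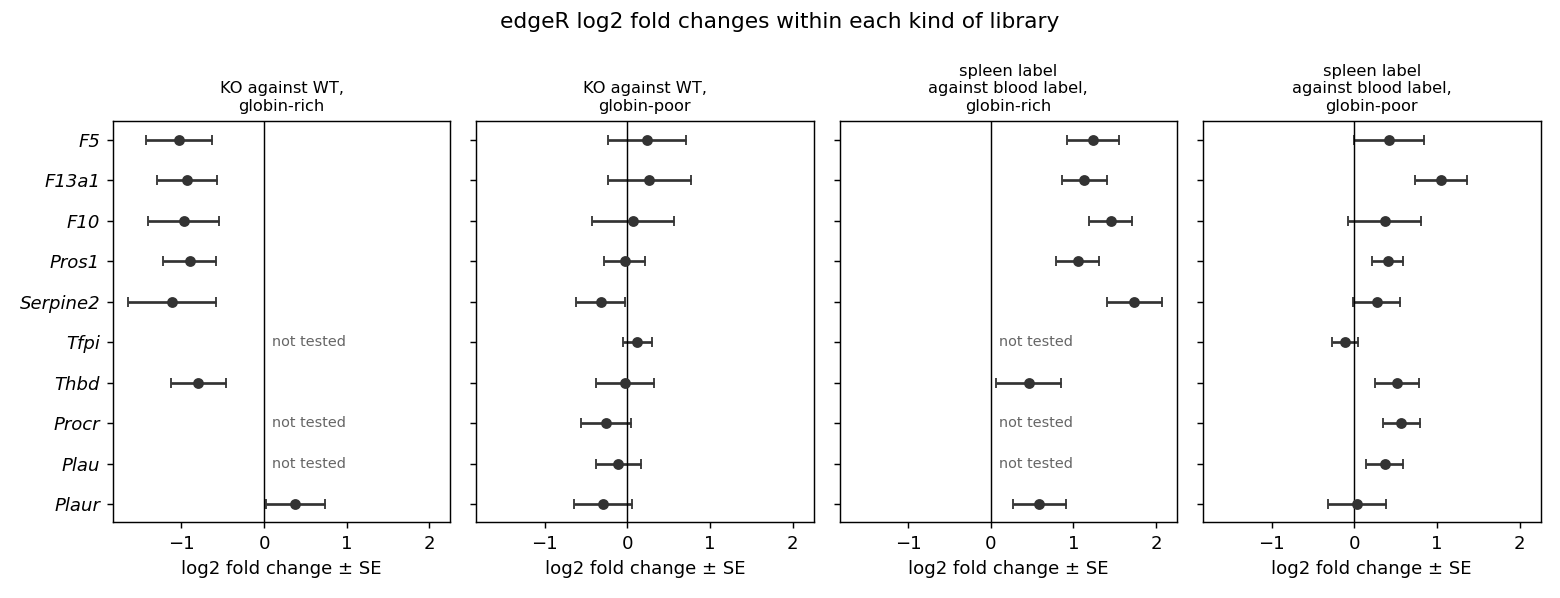
edgeR log2 fold changes (horizontal axis, point) with standard error (bar) for KO against WT and for spleen against blood label, each within 6 globin-rich or 6 globin-poor libraries. Tfpi, Procr and Plau were too low to pass the filter in the globin-rich libraries. The 5 genes from F5 to Serpine2 lie between -1.12 and -0.90 for KO and between 1.05 and 1.74 for the spleen label in the globin-rich libraries, and none of these values has an adjusted p under 0.05.

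Other genes of the system were read from 5 lists, in which 42 of 43 genes matched an identifier, and edgeR called none of them in any of the 7 comparisons. At an unadjusted p under 0.05 edgeR gave 8 of 17 tested for the tissue label in globin-rich libraries (13.5% of all genes), 8 of 26 in globin-poor ones (24.2% of all genes), 5 of 17 for KO in globin-rich libraries (6.81% of all genes), and 0 or 1 in the other comparisons. DESeq2 called 5 for the label in globin-rich libraries (Anxa5, F2rl2, S100a10, Serpinb2 and Vwf), beside 7.15% of all genes. It called 4 in globin-poor libraries (F2rl1, Plat, Serpinf2 and Vkorc1l1), beside 9.88%, and none for KO. Of 15 other coagulation factors, Vwf, the carrier of factor VIII and bridge between platelets and vessel wall, led with 292 to 970 CPM in globin-rich libraries and 36.1 to 50.7 CPM in the globin-poor kind. It was the only one of the list above without overlap. F3 (tissue factor, the starter of the chain, 0 to 1.43 CPM against 3.52 to 11.2 CPM) and F8 lay below, and Proz, a cofactor in factor X inhibition, overlapped at 0.871 to 3.95 CPM and 1.76 to 4.28 CPM. The fibrinogen chains Fga, Fgb and Fgg and the factors F11 and F13b had a median of 0 CPM over the 12 libraries. F13b is the carrier chain of F13a1 in plasma.

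Of 9 other anticoagulants, Anxa5 and Serpina10 lay below without overlap, beside 45% of all genes, and 7 overlapped. Anxa5, which shields phosphatidylserine, was the highest, at 31.9 to 78.1 CPM in globin-rich libraries and 86.4 to 173 CPM in the globin-poor kind. Adamts13, the protease of Vwf, and Serpinc1, antithrombin, stayed at 0 to 3.18 CPM and 0.376 to 7.69 CPM in the globin-rich libraries, with 2.11 to 3.87 CPM and 0.427 to 2.20 CPM in the globin-poor ones. Proc, the protein C that Thbd and Procr activate, had a median of 0 CPM. Of the list of other fibrinolysis genes the 3 highest were S100a10 and Anxa2, which bind plasminogen and its activator as a complex, at 135 to 282 CPM against 83.0 to 154 CPM and 65.2 to 251 CPM against 90.1 to 157 CPM, and the plasminogen receptor Plgrkt, at 16.1 to 56.1 CPM against 42.3 to 81.2 CPM.

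The protease-activated receptors, through which thrombin acts on cells, lay on both sides too. F2rl2, the receptor by which mouse platelets bind thrombin, lay at 16.5 to 83.6 CPM in globin-rich libraries and 4.58 to 9.72 CPM in the globin-poor kind, above without overlap. F2rl3, the other thrombin receptor of mouse platelets, had the higher median in the globin-poor kind, with 0.376 to 8.92 CPM beside 4.14 to 11.8 CPM, and overlapped. F2r, the thrombin receptor of many other cells, lay at 4.88 to 14.3 CPM and 19.5 to 40.8 CPM, below without overlap. F2rl1, a receptor for trypsin-like proteases, overlapped at 3.91 to 17.9 CPM and 3.92 to 15.9 CPM. Of the 5 genes that make vitamin K dependent factors functional or carry factors V and VIII out of the cell, 4 lay below without overlap, beside the 45% of all genes. Lman1 and Mcfd2, the partners that form the cargo receptor for factors V and VIII, lay at 4.57 to 16.4 CPM and 10.3 to 28.3 CPM in globin-rich against 45.6 to 77.7 CPM and 39.1 to 62.4 CPM in globin-poor libraries. F5, a cargo of that receptor, was higher in the kind of library where the messages of the receptor were lower. Vkorc1l1, an enzyme of the vitamin K cycle, lay at 13.2 to 20.2 CPM against 37.2 to 91.9 CPM.

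Inside the globin-rich kind, F5, F13a1, F10, Pros1 and Serpine2 moved with each other: the correlations of log2(CPM + 1) between pairs of them were 0.904 to 0.985 over 6 libraries. In the globin-poor kind the same pairs were looser, at 0.469 to 0.918. There F13a1 and Pros1 went most, among the members, with Thbd (0.956 and 0.947). These are descriptions over few libraries that share 1 denominator each. Among 9857 other protein-coding genes with a median of at least 5 CPM, those most like each member were taken by the correlation over 12 libraries after the mean of each kind was subtracted. Closest to F5 were Tubb1 (0.962), the tubulin of platelets and a gene of the platelet list, and Ptpn11 (0.935). Closest to F10 were the platelet chemokine Ppbp (0.965), also on that list, and Capn3 (0.917). F13a1 was nearest to Cd93 (0.957) and Hpse (0.951), Pros1 to Cd9 (0.979) and Tlr12 (0.971), and Serpine2 to Cald1 (0.979) and Itgb5 (0.971).

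The other members had other neighbours. Tfpi was nearest to Ube4b (0.978) and Fam204a (0.975). Since Tfpi had 1 to 6 counts in each globin-rich library, the values over the globin-poor libraries alone, 0.931 and 0.858, are given too. Thbd was nearest to Arhgap31 (0.943) and Adam9 (0.937), and Procr to the collagen gene Col3a1 (0.871) and to Phldb2 (0.864). Plaur was nearest to Cebpb (0.954), a transcription factor of myeloid cells, and to Pfdn5 (0.919). Plau had a median under 5 CPM and was not compared. Procr and Plau moved together in the globin-poor libraries (0.977 over 6) and did not in the globin-rich ones (-0.001), where both were counted only a few times.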

How the data were processed

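RNA sequencing counts were analysed for 12 libraries, 3 for each genotype in blood and spleen, prepared from 500 ng of total RNA each (NEBNext Ultra II RNA kit). The authors deposited raw counts, 1 table per library with 46603 Ensembl identifiers and no unassigned row. Per the submitters' processing notes the tools were HTSeq, HISAT2 2.0.4, SAMtools 0.1.19, Trimmomatic 0.36 and FastQC, and the build was GRCm38 (mm10). The annotation release and strand setting are not given in the sources used here. Symbols, positions and exon lengths came from GENCODE vM21 (GRCm38), which held 46005 identifiers; Klkb1, Hbb-b1 and Hbb-b2 had no match. Counting that ignores strand would mix genes that overlap on opposite strands. Among the members only F5 overlaps others, Gm16548 and Gm16588, which lay at no more than 0.474 CPM and 0.179 CPM.

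Levels were computed as counts per M counts without globin. Fits used edgeR 4.0.16 in R 4.3.3 (filterByExpr, TMM, robust quasi-likelihood test, Benjamini-Hochberg over all genes tested, threshold 0.05), beside DESeq2 1.42.0 and limma 3.58.1. Each SE given for edgeR was derived from its test, as the absolute log2 fold change over the square root of the F statistic. Tables and plots used Python 3.11.15, pandas 2.3.3 and matplotlib 3.10.9. Fits were tested on simulated data that gave all libraries of a comparison 1 profile of means. That simulation held no globin-rich and globin-poor kinds, so it says nothing about comparisons that mix them. Totals were 9.32 to 28.2 M counts; intervals are exact at 95% and cover counting error only, because reads that carry no molecular identifier are not independent. No library was a copy of another (smallest chi-square per degree of freedom 7.17).

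The members, gene lists and comparisons were chosen with earlier results of these data known. In each comparison fold changes are given for members called, or else for the member with the smallest p in each direction. Of the other pathway genes those called and the 3 highest of each list were to be named; F8, Serpina10, Proc, F13b, F11, F2rl3, Ccr2, the fibrinogen genes, and the genes called by DESeq2 alone were named after their values were seen. The values of 1 listed gene are not reported here. Alternatives were other scalings, filters and tools, added terms, leaving out each library and a replicate block.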

Additional observations from a re-analysis of the deposited data

Results flagged for a closer look

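The Plaur level of 59.8 CPM in the library labelled spleen KO 03 stood apart from the other 5 globin-rich libraries, which lay between 14.4 and 26.1 CPM. Its gap to the next library, as a share of the range, exceeded Dixon's 95% critical value of 0.625 for 6 samples. In all, 20 sets of 6 libraries were looked at (10 genes in each kind), 1 value stood apart, and chance alone gives about 1 in 20. The same library had the highest sum of neutrophil markers, 3969 CPM, and of monocyte markers, 984 CPM, in its kind. Their part in the Plaur value was not tested.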

How the results depend on the processing

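No member was called by edgeR in any of the 7 comparisons as first fitted. For the tissue label in globin-rich libraries 5 members were called by DESeq2 and 5 without a filter, and 0 to 5 when each library was left out (5 without spleen KO 03). In globin-poor libraries DESeq2 called 1, and leaving out each library gave 0 to 1 (1 without spleen KO 01). The cause was not tested. Over the comparisons and alternatives, 107 counts of members kept their side and 5 rose; among named genes 190 values kept direction and side, 5 passed the threshold and 9 turned sign. F10 for KO in blood was -0.24 with library size only, -0.38 by limma-voom, -0.82 with a kind term and -0.036 to 1.97 with a library left out. The F10 interaction was 0.98 with a kind term, Plaur for KO in globin-rich libraries was -0.12 to 0.66 with a library left out, and Tfpi for the label in globin-poor libraries was 0.17 with library size only.

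Counts over all genes depended on the setting. For the label in globin-rich libraries edgeR called 1 gene, 5 with library size only, 57 with a minimum of 5 CPM in 3 libraries, 392 without a filter and 389 without spleen KO 03, limma-voom 45 and DESeq2 839. In globin-poor libraries edgeR called 12, 4 with DESeq2 size factors or library size only, 15 with TMM without globin and mitochondrial genes, 569 without a filter and 2904 without spleen KO 01, and DESeq2 1622. For KO in globin-rich libraries edgeR called 0, 121 without a filter and 483 without blood KO 02, and DESeq2 31; DESeq2 called 5 in globin-poor libraries.

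Same-numbered WT and KO libraries correlated at -0.455 and 0.687 in blood and at 0.536 and -0.559 in spleen. Every WT and KO pair of the same kind of library had a positive value, and every pair of unlike kinds a negative value. These correlations follow the kind of library and therefore cannot show whether the numbers pair the samples. With a replicate block 0 members were called in blood, in spleen and for the interaction, where F10 was 0.90. Only some libraries share a number, so these fits had few degrees of freedom left and their lack of calls says little. No block was fitted within a kind. At this depth Tfpi, Procr and Plau did not pass the filter within the globin-rich libraries, where they had at most 11 counts. They were tested there only without a filter, and none of them was called.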
